A study of Rattus norvegicus with 2 samples.

Results

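Odorant receptors, the largest gene family of the rat, were followed in the hypothalamus, a tissue outside the nose. A probe was taken as a member when the platform annotation gave it 1 gene symbol that begins with Or, or with the older form Olr, followed by a digit. This rule found 1100 probes for 1095 genes among 44290 probes and 14871 named genes in all. It used names only and no measured value.

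The samples were hypothalamus RNA of male Wistar rats that were weaned and 21 days old when they entered the study. The animals lived alone in cages screened from each other, and each of 3 conditions had 4 animals. Tickled rats were stimulated by hand in a way that mimics rough play and evokes calls near 50 kHz. Light-touched rats were touched in a way that as a rule evoked no such calls, and unstimulated rats received nothing. Sessions ran on weekdays for 4 weeks, with 15 s rests and 15 s bouts of stimulation in turn. No genotype other than the Wistar strain is given. RNA of tickled rats, in Cy5, was set against RNA of light-touched rats on 1 two-colour array and against RNA of unstimulated rats on another, with the control RNA in Cy3 both times. The design counts 1 replicate per array. Which of the 4 animals supplied RNA, whether animals were pooled, and whether both arrays carry the same tickled RNA is not given in the sources used here.

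Odorant receptors are G protein-coupled receptors of olfactory sensory neurons, where each mature neuron settles on 1 receptor gene. The receptor acts through a G protein, adenylyl cyclase and a cation channel gated by cyclic AMP. The genes have coding regions without introns, lie in clusters on many chromosomes, and are grouped into class I, the older receptors shared with fish, and class II, found mainly in land vertebrates. Transcripts of some members have been reported outside the nose, usually at low level.

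Values are the deposited ratios of the 2 dyes. They are read here with tickled on top, the likely direction, because Cy5 carried the tickled RNA both times. If the submitters divided the other way, each direction given here turns round. No array had the dyes swapped, so a difference between tickled and control RNA and a difference between Cy5 and Cy3 cannot be told apart. With 1 array per comparison no test was possible, and all comparisons are descriptions by size. Where a gene had several measured probes, these differed with a pooled SD of 0.18 log2 units (4354 genes against no stimulus and 4226 against light touch). This is the only measure of error at hand, and it leaves out variation between animals. It rests almost wholly on genes outside the family, since only 1 receptor had 2 measured probes, so the error of receptor ratios may be larger. All 14 hypothalamic marker genes, among them those for orexin (Hcrt), melanin-concentrating hormone (Pmch) and the transcription factors Otp and Nkx2-1, had a ratio on both arrays. Against light touch their ratios were not centred on 1. There 13 of 14 were above 1 (lowest 0.91, median 1.55, highest 2.13), beside 51.3% of all named genes. Against no stimulus 8 of 14 were above 1 (lowest 0.38, median 1.08, highest 1.62), beside 51.8% of all named genes. In bulk tissue, more cells of a type and more RNA per cell cannot be told apart, and the part of these differences in the receptor ratios was not tested.

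Most odorant receptor probes had no ratio at all. On the no-stimulus array 327 of 1100 probes (29.7%) had a value, and on the light-touch array 333 (30.3%), where 69.8% and 68% of all probes on the array did. Other named probes had a value in 80.4% and 78.9% of cases. The 2 arrays left largely the same receptors empty. Of the 1100 probes, 291 (26.5%) had a value on both arrays, 36 on the no-stimulus array only, 42 on the light-touch array only, and 731 (66.5%) on neither. Of the other named probes, 77.5% had a value on both arrays and 18.2% on neither. The rule by which the submitters left a probe empty is not given in the sources used here, so an empty probe does not by itself show that a receptor was unexpressed. Dye signals were not analysed here. The values that follow therefore describe the 369 probes (368 genes) that had one and not the family as a whole.

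**Figure D1:**
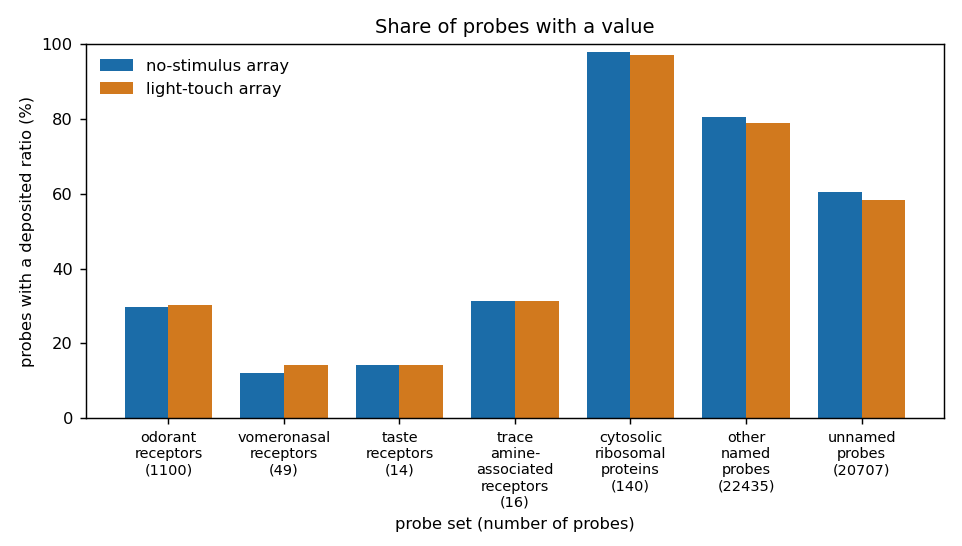
Percent of probes with a deposited ratio (y axis) in 7 probe sets (x axis, number of probes in brackets), on the no-stimulus array (blue) and the light-touch array (orange). Odorant receptors stand at 29.7% and 30.3%, other named probes at 80.4% and 78.9% and cytosolic ribosomal proteins at 97.9% and 97.1%.

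Values were spread over the whole family and not gathered in a few branches. Among the 13 symbol groups with 20 or more probes, the share with a value ran between 21.9% and 37.9% against no stimulus and between 19.2% and 42.5% against light touch. The large Or5 family was at the low end both times, with 32 of 146 and 28 of 146 probes. Class I receptors (families 51 to 56) had a value for 41 of 114 probes (36.0%) and 44 of 114 (38.6%), and class II receptors (families 1 to 14) for 271 of 930 (29.1%) and 272 of 930 (29.2%). The median log2 ratio was above 0 in all 13 groups on both arrays. It ran between 0.06 and 0.20 against no stimulus and between 0.06 and 0.23 against light touch. Or9 had the highest median on both arrays, from 10 measured probes. For class I receptors the median log2 ratio was 0.07 and 0.10, and for class II receptors 0.10 and 0.11. Whether the classes differ was not tested.

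**Figure D2:**
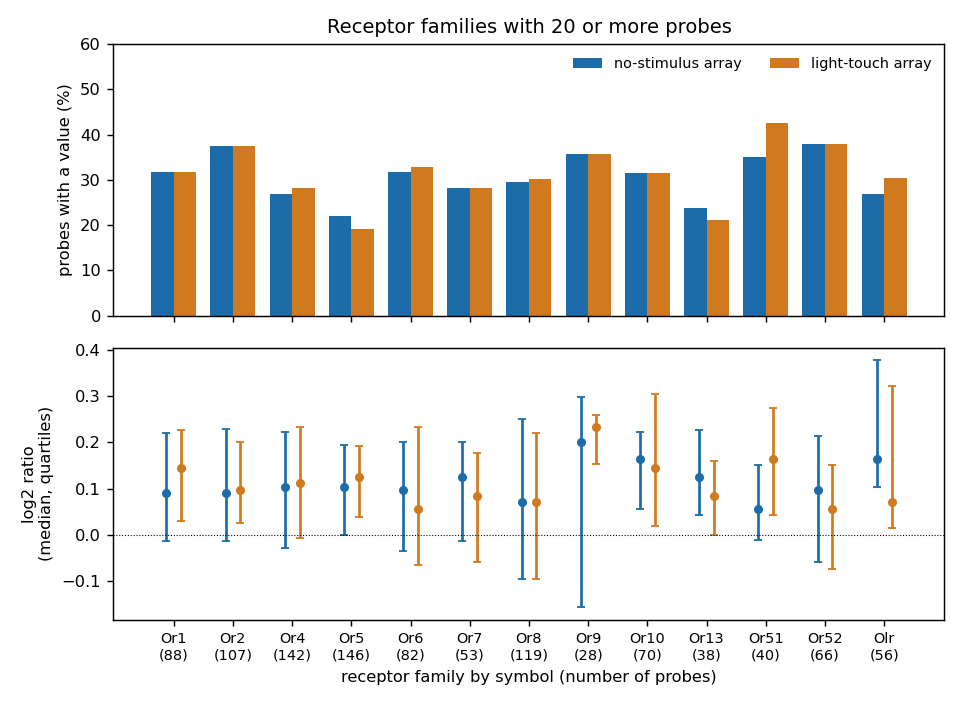
Upper panel, percent of probes with a value. Lower panel, median log2 ratio with quartiles of the measured probes, for symbol groups with 20 or more probes (x axis, number of probes in brackets), on the no-stimulus array (blue) and the light-touch array (orange). All 13 medians lie above 0 on both arrays.

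Where a receptor had a value, its ratio was above 1 more often than not. Against no stimulus, 226 of 327 probes (69.1%) lay above 1, 7 at 1 and 94 below, where 48.9% of all measured probes lay above 1 and 47.2% below. Against light touch, 245 of 333 (73.6%) lay above 1, 7 at 1 and 81 below, where 50% of all measured probes lay above 1 and 46.3% below. The median ratio was 1.07 against no stimulus (lowest 0.40, quartiles 0.985 and 1.17, highest 2.90) and 1.08 against light touch (lowest 0.62, quartiles 1 and 1.18, highest 2.70). The median of all measured probes was 1 on both arrays. On the log2 scale the receptor medians were 0.10 and 0.11. Ratios of the cytosolic ribosomal proteins, which nearly all had a value, had medians of 1 and 1.01.

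Receptor ratios also spread more widely. Their SD was 0.29 log2 units against no stimulus and 0.28 against light touch, while that of other named probes was 0.21 and 0.22 and that of ribosomal proteins 0.10 and 0.11. The scaled median absolute deviation, which gives little weight to extreme probes, was 0.19 on both arrays for the receptors and 0.13 and 0.14 for other named probes. At 1.5-fold, 18 receptor probes (5.5%) were at 1.5 or more against no stimulus and 18 (5.41%) against light touch, beside 2.05% and 1.94% of all measured probes. At 1/1.5 or less were 3 (0.917%) and 2 (0.601%), beside 0.479% and 0.926%. Probes measured on 1 array only spread most. Their SD was 0.55 for the 36 with a value against no stimulus alone and 0.43 for the 42 with one against light touch alone, against 0.24 on both arrays for the 291 with both values. In other named probes the same split gave 0.44 and 0.48 for probes with 1 value and 0.20 and 0.21 for probes with both. The median log2 ratio of the receptors with both values was 0.11 on both arrays, and of those with 1 value 0.01 against no stimulus and -0.05 against light touch. Of the receptors with both values, 208 lay above 1 against no stimulus and 226 against light touch, and of those with 1 value 18 of 36 (50%) and 19 of 42 (45.2%). Other named probes lay above 1 in 50.1% and 50.0% of cases where both arrays had a value, and in 46.4% and 35.2% where 1 did, so their share above 1 was also lower among probes with 1 value.

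**Figure D3:**
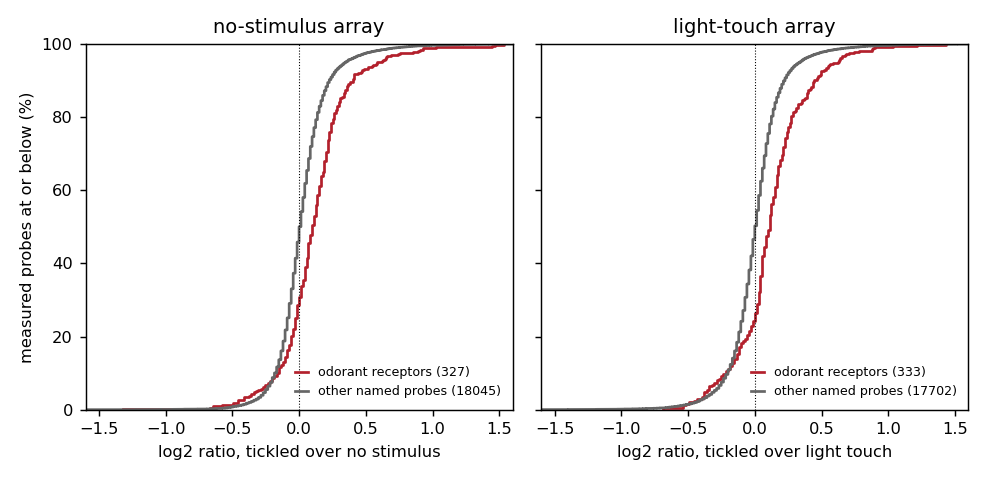
Cumulative percent of measured probes (y axis) by log2 ratio (x axis) on the no-stimulus array (left) and the light-touch array (right), for odorant receptors (red) and other named probes (grey). The red curve lies right of the grey one around its middle, with medians of 0.10 and 0.11 against 0 and 0.

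Receptor ratios changed with the place of the probe in the order of probe numbers. In the outer 20% of probe numbers, 10% at each end, the receptor median was 0.21 against no stimulus (64 measured probes) and 0.24 against light touch (66), and in the middle 80% it was 0.07 on both arrays (263 and 267). For other named probes the medians were 0.06 in the outer part and 0 in the middle part, on both arrays. When the numbers were divided into 10 equal bins, receptor medians ran between -0.04 and 0.23 against no stimulus and between -0.06 and 0.28 against light touch, lowest near the middle and highest in the last bin. Other named probes ran between -0.04 and 0.06, and between -0.04 and 0.08. Receptors had the higher median in 10 of 10 bins against no stimulus and in 9 of 10 against light touch. The share of receptors with a value was alike in both parts, at 31.5% and 32.5% in the outer part and 29.3% and 29.8% in the middle. With a running median over 500 measured probes subtracted, the receptor medians were 0.10 and 0.09, and those of other named probes 0. Where a probe number lies on the slide is not given in the sources used here, and the part of position in the ratios beyond these values was not tested.

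**Figure D4:**
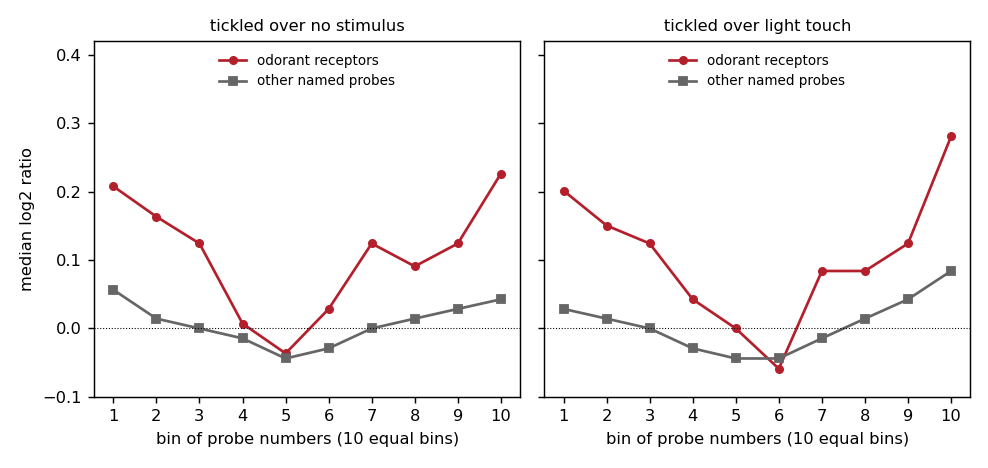
Median log2 ratio of measured probes (y axis) in 10 equal bins of probe numbers (x axis), for odorant receptors (red circles) and other named probes (grey squares), tickled over no stimulus (left) and over light touch (right). Receptor medians are lowest in the middle bins and reach 0.23 and 0.28 in the last one. Each receptor point holds at least 23 probes.

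Of the receptors, 8 lay 2-fold or more from 1 on an array. Against no stimulus 4 were at 2 or more (1.22%, beside 0.453% of all measured probes) and 1 was at 0.5 or less (0.306%, beside 0.0906%). Against light touch 3 were at 2 or more (0.901%, beside 0.395%) and 0 at 0.5 or less (beside 0.169%). All 7 high probes lay in the outer 20% of probe numbers, as did 105 of all 140 probes at 2 or more against no stimulus and 83 of all 119 against light touch. Of the 8, 5 had a value on 1 array only and so no second ratio beside it.

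Or1j15b, a class II receptor, had ratios of 2.90 against no stimulus and 1.23 against light touch. Or10j7 had 2.04 against no stimulus and 1.72 against light touch. Or2n1i had 1.69 against no stimulus and 2.70 against light touch. These 3 were above 1 on both arrays, and none was at 2 or more on both. Or13p4 and Or10g1b had ratios of 2.76 and 2.73 against no stimulus and no value against light touch. Or4f14 and Or8b1d had 2.32 and 2.05 against light touch and no value against no stimulus. Or1i2 was the low one, at 0.40 against no stimulus with no value against light touch.

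Odorant receptors share long stretches of sequence, and the probe sequences were not used here, so whether a ratio holds signal of relatives was not tested. RefSeq start windows (GRCr8 build) were found for 923 members, and in 919 of these (99.6%) the annotated start is the start codon ATG, against 2876 of 27457 genes in all (10.5%). For these receptors the annotated start is thus the coding start, and the bases before it cannot be taken as a promoter. Over the first 50 coding bases, compared without gaps, a member was identical to its closest other member at a median of 43 bases, and 89 members were identical to another over all 50. The first 50 coding bases of receptors 2-fold from 1 are shown with their closest match among the members, because some pairs differ very little. A closest match is the best ungapped count over these bases only. It need not be the nearest relative, as with Or1i2 and Or7g23, whose symbols place them in different families. Capitals mark bases that differ within a pair.

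Or1j15b (chr3:40308136-40308185, plus strand) differs at 1 base from Or1j16 (chr3:40536052-40536101, plus strand), which had ratios of 0.99 and 1.06.
Or1j15b: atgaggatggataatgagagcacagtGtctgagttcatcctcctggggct
Or1j16: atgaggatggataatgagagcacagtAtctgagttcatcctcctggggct

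Or10g1b (chr15:27602239-27602288, minus strand) differs at 1 base from Or10g1 (chr15:27620025-27620074, minus strand), which had no value on either array.
Or10g1b: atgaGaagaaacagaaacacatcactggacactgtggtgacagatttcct
Or10g1: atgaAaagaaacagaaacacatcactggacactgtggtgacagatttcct

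Or4f14 (chr3:118976140-118976189, minus strand) differs at 2 bases from Or4f57 (chr3:119000019-119000068, minus strand). Against light touch the ratio was 2.32 for Or4f14 and 0.71 for Or4f57, and neither had a value against no stimulus.
Or4f14: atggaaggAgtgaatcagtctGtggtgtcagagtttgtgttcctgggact
Or4f57: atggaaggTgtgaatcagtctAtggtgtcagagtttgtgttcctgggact

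Or10j7 (chr13:88181008-88181057, minus strand) differs at 5 bases from Or10j27 (chr13:88123294-88123343, minus strand), which had no value.
Or10j7: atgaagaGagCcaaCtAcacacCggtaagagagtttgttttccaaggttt
Or10j27: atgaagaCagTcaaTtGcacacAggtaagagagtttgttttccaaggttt

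Or1i2 (chr7:11636515-11636564, plus strand), the low member, differs at 11 bases from Or7g23 (chr8:24074025-24074074, minus strand), which had ratios of 1.06 and 1.06.
Or1i2: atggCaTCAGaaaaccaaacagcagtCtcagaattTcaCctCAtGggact
Or7g23: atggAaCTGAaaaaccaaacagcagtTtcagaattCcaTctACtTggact

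Or2n1i (chr20:390803-390852, minus strand) is identical over these bases to 3 other members. Of these, Or2n1n had a ratio of 1.03 against light touch and no value against no stimulus, and Olr1675 and Or2n1j had no value.
Or2n1i: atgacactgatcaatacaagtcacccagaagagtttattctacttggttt

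None of the closest matches shown or named beside these 6 receptors was itself 2-fold from 1, and 4 of these 8 had no value on either array. Of the neighbours of Or8b1d in the gene order, Or8b51 had 0.93 and 1.06 and Or8b50 no value. The closest match of Or13p4 over this window was Or8c10, of another family, with 35 of 50 bases shared. Whether Or13p4 has a closer relative over the whole gene was not tested. Members with a value on an array shared a median of 42 bases with their closest match, and members without one 43. Identical to another member over all 50 bases were 32 of 309 (10.4%) with a value and 57 of 610 (9.34%) without. Where the probes lie in the genes was not examined, and what these values mean for signal of relatives was not tested. The GC content of the first 50 coding bases had a median of 44% (SD 6.85 over members) in the 309 members with a value and 42% (SD 6.21) in the 610 without.

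Among the 291 receptors with both values, 180 (61.9%) were above 1 on both arrays, beside 31.8% of all probes with both values, and 34 (11.7%) were below 1 on both, beside 28.3%. Both arrays hold tickled RNA, which may be the same RNA, so these counts are not 2 independent readings. At 1.5 or more on both arrays were 7 receptors (2.41%, beside 0.719%), and at 2 or more on both 0 (beside 0.0882%). At 1/1.5 or less on both were 0 (beside 0.0509%), and so 0 at 0.5 or less (beside 0.0204%).

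By the ratio nearer to 1, Or10j7 and Or2n1i led, followed by Or7d11c at 1.58 against no stimulus and 1.56 against light touch. Or52e19, a class I receptor, had 1.61 and 1.56, and Or8h11 had 1.55 and 1.85. The other 2 of the 7, named after their values were seen, were Or8g20 at 1.54 and 1.84 and Or4f60b at 1.5 and 1.54. Of these 7 probes, 4 lay in the outer 20% of probe numbers. Other high values were those of Olr1481, at 1.85 against no stimulus and 1.28 against light touch, and Or4b1c, at 1.43 and 1.87.

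The lowest receptors with both values stayed within 1.5-fold of 1. Or4k35 had 0.73 against no stimulus and 0.71 against light touch, Or5b124 had 0.71 and 0.78, and Or4k48 had 0.78 and 0.79. Or52b2 had 0.79 and 0.83, Or5i1 0.86 and 0.74, and Or8g37b 0.77 and 0.87. All 6 lay in the middle 80% of probe numbers. Some receptors with both values were low on 1 array only. Or6d14 had 0.75 against no stimulus and 1.04 against light touch, and Olr59 had 1.06 and 0.77. Receptors with a value on 1 array only went lower, down to 0.40 against no stimulus (Or1i2) and 0.62 against light touch. Of receptors that are known from tissues outside the nose, Or51e1, which is reported in prostate and other organs, had 1.12 on both arrays, and Or10j5, whose mouse counterpart is known from sperm, had no value. No member probe carried the symbol Or51e2.

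**Figure D5:**
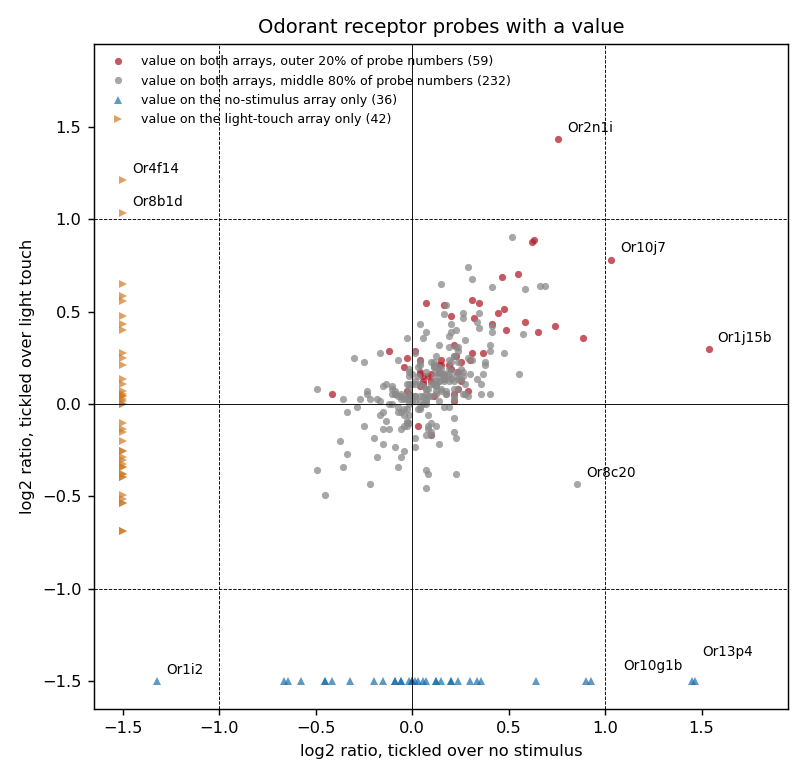
Log2 ratio of each measured odorant receptor probe, tickled over no stimulus (x axis) and tickled over light touch (y axis). Circles have both values (red, outer 20% of probe numbers, and grey, middle 80%), triangles have 1 value and are drawn at the edge of the axis they lack, and dashed lines mark 2-fold. No circle lies beyond 2-fold on both axes, and Or8c20 lies on opposite sides of 0.

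Light-touched and unstimulated rats can be set against each other only indirectly, as the log2 ratio against no stimulus minus that against light touch. Only if both arrays carry the same tickled RNA does this stand for light touch over no stimulus. Over the 291 receptors the median was -0.02 (SD 0.22), and over the 17384 other named probes 0 (SD 0.23). Only 2 receptors were 2-fold or more above (0.687%, beside 0.516% of all probes with both values) and 0 below (beside 0.0848%).

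Or8c20 had the highest indirect value, 1.29, from a ratio of 1.81 against no stimulus and 0.74 against light touch. Or1j15b followed at 1.24. Next came Or4f53b at 0.60, Olr1481 at 0.53 and Or12j4 at 0.52. Relatives of Or8c20 did not share its pattern, since Or8c10b had 1.03 and 1.18, Or8c11 0.83 and 1.02, and Or8c15b 1.33 and 1.55. At the other end stood Or2n1i at -0.68, Or9s18 at -0.58, Or9s14 at -0.55, Or6c203l1 at -0.50 and Or9s27 at -0.48.

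The Or9s subfamily supplied 3 of these 5 low values. Or9s14 had ratios of 0.81 against no stimulus and 1.19 against light touch, Or9s18 had 0.71 and 1.06, and Or9s27 had 0.84 and 1.17. All 3 were below 1 on the no-stimulus array and above 1 on the light-touch array, and the other 3 Or9s probes had no value on either array. In all, 42 of the 291 receptors with both values had this pattern, and the share of all probes with it is not given here. These 3 were picked from the lowest indirect values. Their first coding bases are shown because they moved alike. Or9s14 (chr9:100620818-100620867, plus strand) and Or9s27 (chr9:100589646-100589695, plus strand) share 43 of 50 bases (capitals mark the others), while Or9s18 shares 11 with each in an ungapped comparison.
Or9s14: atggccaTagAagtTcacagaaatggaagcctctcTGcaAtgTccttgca
Or9s27: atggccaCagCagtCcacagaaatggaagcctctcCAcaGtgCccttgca

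Such agreement within a subfamily was not general. Over 57 subfamilies with 2 or more probes with both values (206 probes), the pooled SD within a subfamily was 0.25 against no stimulus, 0.25 against light touch and 0.23 for the indirect difference, against 0.25, 0.25 and 0.23 over the same probes without regard to subfamily. Of 32 subfamilies with 3 or more such probes, 1, Or9s, had every probe below 1 against no stimulus. Of the same 32, 3 (Or2v, Or51f and Or9s) had every probe higher against light touch than against no stimulus, and 6 had every probe above 1 on both arrays. Of single receptors with both values, 27.15% were below 1 against no stimulus (beside 45.6% of other named probes with both values). Higher against light touch were 53.3% (beside 50.0% of all probes with both values), and above 1 on both arrays 61.9% (beside 31.8%). Whether subfamilies were uniform more often than these shares give was not tested. Receptors that lie next to each other in the RefSeq gene order (859 pairs) were also little alike in having a value. After a receptor with a value, its neighbour had one in 30.8% of cases against no stimulus and 34.6% against light touch, and after a receptor without a value in 29.6% and 28.7%.

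Direct repeats of a receptor were few. Of 5 receptors with 2 probes, 1 had values for both. Its probes disagreed in direction, since Or8k39 had 1.11 and 0.87 against no stimulus and 1.14 and 0.88 against light touch. Within each probe the 2 arrays gave similar ratios. Or52l1 and Or5b123 each had 1 probe with values on both arrays, at 1.01 and 1.22 for Or52l1 and at 1.19 and 1.14 for Or5b123, and 1 empty probe. Olr1271 had 1 probe with a value, of 1.32 against light touch, and 1 empty one, and both probes of Or6c69d were empty.

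Genes of olfactory signalling mostly lay near 1. Of a list of 28, 26 had probes under their symbols, and 25 had a value against no stimulus and 24 against light touch. The median log2 ratio of the genes was 0.05 and 0.02, and that of all named genes 0.01 on both arrays. Above 1 were 17 of 25 (68%) against no stimulus and 13 of 24 (54.2%) against light touch, beside 51.8% and 51.3% of all named genes. At 1.5 or more were 1 gene against no stimulus and 2 against light touch (beside 1.62% and 1.57% of all named genes), and at 1/1.5 or less 0 and 0 (beside 0.362% and 0.928%). The high ones were receptor transporters. Rtp2, which carries odorant receptors to the cell surface, had 1.78 against no stimulus and 2.16 against light touch, and its relative Rtp1 had 1.38 and 1.59. Both probes lay in the middle 80% of probe numbers. With the running median subtracted Rtp2 was at 1.75 and 2.12. Atf5, a transcription factor of maturing olfactory neurons, had 1 probe at 1.45 and 2.09 and another at 1.01 and 1.03, so its probes disagreed.

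The transduction chain itself stayed below 1.5 in every measured probe named here. Adenylyl cyclase 3 (Adcy3) had 1 against no stimulus and 1.03 against light touch. The olfactory G protein alpha subunit Gnal, which striatal neurons also express, had 0.95 from both probes against no stimulus, and 0.79 and 0.82 against light touch. The channel subunits Cnga4 and Cngb1 had 1.31 and 1.39 against no stimulus, where Cngb1 had that ratio from both probes. Against light touch Cnga4 had no value and Cngb1 had 1.07 from 1 probe.

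Defining markers of mature olfactory neurons were in part empty. The channel subunit Cnga2 had no value on either array. Olfactory marker protein (Omp) had 1 empty probe and 1 with ratios of 0.94 and 1.14. Of 9 such markers, 8 had probes, 7 had a value against no stimulus (6 above 1) and 6 against light touch (4 above 1). Of all named genes with a value, 51.8% and 51.3% were above 1, and so few markers cannot be read against those shares. Several of them, such as Slc17a6, the glutamate transporter also found in hypothalamic neurons, are not restricted to the nose. Of olfactory bulb markers, 4 of 5 genes had a value. Their median ratio was 0.875 against no stimulus (lowest 0.753, highest 1.01) and 0.967 against light touch (lowest 0.875, highest 1.58). Th was the highest both times. Tbx21, a marker of mitral and tufted cells, was empty. A deposited ratio carries no level, so these values do not say how much of any of these transcripts was present.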

How the data were processed

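The deposited series table holds 1 linear ratio of both dyes per probe and array, to 2 decimals, for 44290 probes. What the authors used as image software, normalization, numerator and filter for empty probes is not stated by labels or file headers. Both arrays had a median ratio of 1 as deposited. Per the labels, 500 ng of total RNA was amplified to aminoallyl cRNA and coupled to Cy3 or Cy5. Platform annotation gave 1 symbol to 23535 probes, several to 48 and none to 20707. Of the member probes, 1096 of 1100 were found in the RefSeq gene table (GRCr8), all typed protein coding, and 0 symbols changed.

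Ratios were taken to log2 and summarised per probe with Python 3.11.15, numpy 2.4.6 and pandas 2.3.3. The summaries were tested on simulated data, with values emptied at random and the same spread in receptors as in other probes. This checks the calculations only, since real receptor probes were emptier and spread more widely. Background shares cover all probes with a value. Members, lists and tests were chosen with earlier results of these data known. Genes were named by rule, as all members 2-fold from 1, the 5 highest and 5 lowest on each array, on both by the ratio nearer to 1 and in the indirect difference, members with several measured probes, and Or51e1, Or51e2 and Or10j5. Alternatives were the middle 80% of probe numbers, a subtracted running median over 500 probes, 1 value per gene, no pseudogenes, probes with both values, 1.5-fold in place of 2-fold and the median absolute deviation. Precision is limited by having 1 array per comparison.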

Additional observations from a re-analysis of the deposited data

How the results depend on the processing

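Of 78 alternative values, 65 stayed within the range set for them, 13 moved further and 0 changed sign. The range was the 95% binomial interval of a share, the 95% order-statistic interval of a median, or 1.5 times for a count or SD. These intervals run over the probes of 1 array, so they leave out variation between arrays and animals. With the middle 80% of probe numbers the median log2 ratio against light touch was 0.070 (0.11 with all probes), and the counts at 2 or more were 0 against no stimulus and 0 against light touch. With only probes measured on both arrays these counts were 2 and 1, and the count at 0.5 or less against no stimulus was 0. At 1.5-fold the high counts were 18 and 18 and the low counts 3 and 2, and 7 probes passed on both arrays in the same direction. The scaled median absolute deviation was 0.19 on both arrays in place of an SD of 0.29 and 0.28. The alternative without pseudogenes left out 0 probes, so its values could not move. With 1 value per gene little could move, since 5 receptors had 2 probes and 1 of them had values for both. The 65 are therefore not separate checks. Counts at 1.5-fold and the median absolute deviation are other measures than those they stand beside. The 2 settings chosen after seeing the data were only symbols that begin with Or and the family without the 8 members 2-fold from 1, and neither moved a value beyond these ranges. No paired analysis was possible because each comparison has 1 array, and no array could be left out in turn. Without dye signals, values near background could not be set apart.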

Other observations

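Other chemosensory receptor families were also mostly empty. Vomeronasal receptors, which serve the pheromone organ, had a value for 6 of 49 probes (12.2%) against no stimulus and 7 (14.3%) against light touch, with ratios between 0.90 and 1.46 and between 0.78 and 1.35. Taste receptors had a value for 2 of 14 probes (14.3%) on each array, at ratios of 1.12 and 1.80 against no stimulus and 1.06 and 1.12 against light touch. Trace amine-associated receptors, a small olfactory family, had a value for 5 of 16 probes (31.2%) on each array, between 0.92 and 1.09 and between 0.91 and 1.21. These sets hold too few measured probes for their medians to be set beside those of the odorant receptors. The 20707 probes without a symbol had a value in 60.4% of cases against no stimulus and 58.3% against light touch.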
